A study of Mus musculus with 6 samples.

Results

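The genes described here are 9 regulators of pre-mRNA splicing, the CDC-like kinases Clk1, Clk2, Clk3 and Clk4, the SR protein kinases Srpk1 and Srpk2, the dual-specificity kinase Dyrk1a, and the splicing activators Tra2a and Tra2b. They were chosen by name, and their rows were found through the Ensembl identifiers of the count table, so that 9 of 51912 genes were members and all 9 were among the 15240 genes with enough reads to test. Reads were counted in 3 wild type and 3 Bud31-vKO libraries of spermatogonial stem cells, taken as THY1+/c-KIT- cells from the testis of C57BL/6J pups on postnatal day 4 and amplified by Smart-Seq2, a method for full-length cDNA from little RNA. In Bud31-vKO mice Bud31, which encodes a protein of the spliceosome, was deleted by Cre and loxP, and the labels name neither the Cre line, nor the deleted exons, nor the number of animals or cells behind a library. The p-values thus measure the spread between these libraries, which may be technical. The table heads its columns with C and T and a number, read here as wild type and Bud31-vKO, which the labels do not spell out.

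SR proteins are splicing factors whose tails are rich in arginine and serine, and the phosphates on those serines decide where the proteins reside and whether they take part in splicing. SRPK1 and SRPK2 add phosphates mostly in the cytoplasm and so drive SR proteins into the nucleus, while the CLK kinases act inside the nucleus, where further phosphorylation releases SR proteins from their storage speckles. DYRK1A is a relative of the CLKs that also phosphorylates splicing factors and regulators of the cell cycle. TRA2A and TRA2B are SR-like proteins that bind purine-rich exon sequences containing AGAA and promote the inclusion of those exons, among them a testis exon of Nasp, which encodes a histone chaperone. Several of these genes limit their own output through splice forms that are destroyed by nonsense-mediated decay, the pathway that removes transcripts with early stop codons.

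The exons on which this self-control turns are shown first, since the counts below sum all splice forms of a gene. All sequences are from GENCODE M21 transcripts on GRCm38, 5′ to 3′ on the transcribed strand. In Clk1 exon 4 of the coding transcript, chr1:58420121-58420211 on the minus strand, is absent from both annotated nonsense-mediated decay transcripts. In Clk4 its counterpart is chr11:51273078-51273168 on the plus strand, absent from all 3 such transcripts. Both exons hold 91 bases and are wholly coding, and capitals mark the 6 bases at which they differ:
Clk1: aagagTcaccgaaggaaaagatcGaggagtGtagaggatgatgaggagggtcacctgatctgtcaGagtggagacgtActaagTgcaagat
Clk4: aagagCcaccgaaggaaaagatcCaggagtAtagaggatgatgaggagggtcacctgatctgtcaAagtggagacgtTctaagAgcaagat
Their longest identical stretch, 34 bases, is also the longest that the whole Clk1 and Clk4 coding transcripts share. A read longer than this that matches without error belongs to one transcript of the pair or the other. Over the aligned coding bases Clk1 and Clk4 were 74.6% identical, Clk2 and Clk3 71.2%, Srpk1 and Srpk2 69.4%, and Tra2a and Tra2b 64.9%, and the last 3 pairs share no identical stretch above 18 bases.

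TRA2 genes carry the opposite arrangement, an exon found in nonsense-mediated decay transcripts and in no coding transcript. In Tra2b it spans chr16:22258986-22259261 and in Tra2a chr6:49252803-49253108, both on the minus strand. The part annotated as coding is printed, with each AGAA in capitals:
Tra2b: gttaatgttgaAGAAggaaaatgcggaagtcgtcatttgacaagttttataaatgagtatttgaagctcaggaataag
Tra2a: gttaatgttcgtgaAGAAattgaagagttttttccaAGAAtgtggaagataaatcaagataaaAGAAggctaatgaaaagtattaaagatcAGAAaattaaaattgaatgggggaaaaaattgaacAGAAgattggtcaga
The whole Tra2b exon of 276 bases holds AGAA 12 times and the Tra2a exon of 306 bases 13 times, counted on the transcribed strand with overlaps allowed. Of 11217 internal exons of coding transcripts within 20% of the Tra2b exon's length, 79.6% held the motif, the median number was 2, and 0.20% held it 12 times or more. Of 7575 exons near the length of the Tra2a exon, 81.1% held the motif and 0.24% held it 13 times or more. Exons were matched by length only, and G and C make up 32.6% of the Tra2b exon and 30.1% of the Tra2a exon. The effect of base composition on these counts was not tested. The testis exon of Nasp, chr4:116610403-116611377 on the minus strand, is in the long coding transcript and in neither short one. It is 975 bases long and holds the motif 23 times, a number reached by 1.90% of 1156 exons of like length, where 97.7% held at least 1. Its 150 bases with the most AGAA, at chr4:116611209-116611358, read as follows:
Nasp: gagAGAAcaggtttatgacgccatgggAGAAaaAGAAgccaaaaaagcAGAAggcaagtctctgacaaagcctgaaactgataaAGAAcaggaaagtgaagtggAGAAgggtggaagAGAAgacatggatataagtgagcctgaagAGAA
A count of letters is a description of these exons and does not show binding.

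Libraries of the same genotype differed strongly from one another. Totals were 13240704 to 18744466 reads. Wild type library 3 and Bud31-vKO library 2 stood apart with 13762 and 12464 genes detected, against 18171 to 22300 in the other 4. Among 4999 tested genes with a mean log2 CPM (reads scaled to a common library size) of 4 to 6, 12.4% were under 2 CPM in wild type library 3 and 18.8% in Bud31-vKO library 2, against at most 2.18% elsewhere. Results are therefore also given for the 4 others, called gene-rich below. The summed level of 14 germ cell markers was 3860 to 4560 CPM in wild type against 2130 to 2820 CPM with Bud31-vKO, with Dppa3 at 0 throughout. That of 8 markers of T and natural killer cells was 6.71 to 43.0 CPM in wild type against 71.4 to 127 CPM with Bud31-vKO, with Klrb1c at 0 in all wild type libraries. Neither sum overlapped between the genotypes. Of the 8, only Gzma and Klrb1c separated them, and by log2 fold change Cd2 and Lck were below 0 and the other tested markers above. The sum of 12 markers of undifferentiated spermatogonia overlapped, at 820 to 1170 CPM in wild type against 513 to 880 CPM with Bud31-vKO. Sums of Leydig, peritubular, endothelial, macrophage and erythroid markers overlapped too. For 12 Sertoli cell markers the sum was 142 to 457 CPM in wild type against 198 to 1790 CPM with Bud31-vKO. The 6 stromal markers such as Col1a1 reached 8150 CPM or more in every library, above the germ cell sum each time. Of the sorting proteins, Thy1 measured 13.3 ± 2.85 and 16.4 ± 12.1 CPM and Kit 30.7 ± 31.4 and 12.8 ± 11.8 CPM in wild type and Bud31-vKO (SD, n = 3 each). In bulk RNA, fewer cells of a type and less RNA per cell cannot be told apart. Bud31 itself gave 137.8, 96.8 and 157.9 CPM in wild type against 47.2, 67.7 and 80.4 CPM with Bud31-vKO, without overlap. Its log2 fold change was -1.01 (standard error, SE, 0.39; edgeR unadjusted p = 0.0345), and 15.2% of its exon bases are shared with Ptcd1.

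Clk1 was the member that differed most clearly between the genotypes. It measured 148.3, 194.9 and 238.7 CPM in wild type libraries 1 to 3, from 2034, 3528 and 4100 reads. Bud31-vKO libraries 1 to 3 held 473.7, 484.7 and 303.8 CPM, from 6480, 6792 and 4108 reads. The lowest Bud31-vKO library thus lay above the highest wild type library, as was the case for 4.76% of all tested genes. The mean level was 194 ± 45.2 CPM in the wild type libraries, and the Bud31-vKO libraries gave 421 ± 101 CPM (SD, n = 3 each), 2.17-fold higher. The log2 fold change was 1.12 (SE 0.33). The quasi-likelihood test of edgeR gave an unadjusted p of 0.00938, the 72nd smallest of 15240, with an adjusted p (Benjamini-Hochberg over all 15240 genes) of 0.9997, so Clk1 did not pass the test. In the 4 gene-rich libraries the log2 fold change was 1.19 (SE 0.36; edgeR unadjusted p = 0.0173). Without each library in turn it lay between 0.95, without wild type library 1, and 1.32, without wild type library 3. Clk1 (ENSMUSG00000026034) lies at chr1:58410189-58424066 on the minus strand and shares no exon base with another annotated gene. Its 13 annotated transcripts include 1 coding, 2 nonsense-mediated decay and 7 retained-intron forms, and a count per gene does not say which of them gave the reads. In the same 3 Bud31-vKO libraries the summed germ cell markers were lower and the summed T and natural killer cell markers higher, as given above. Their part in the level of Clk1 was not tested.

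**Figure D1:**
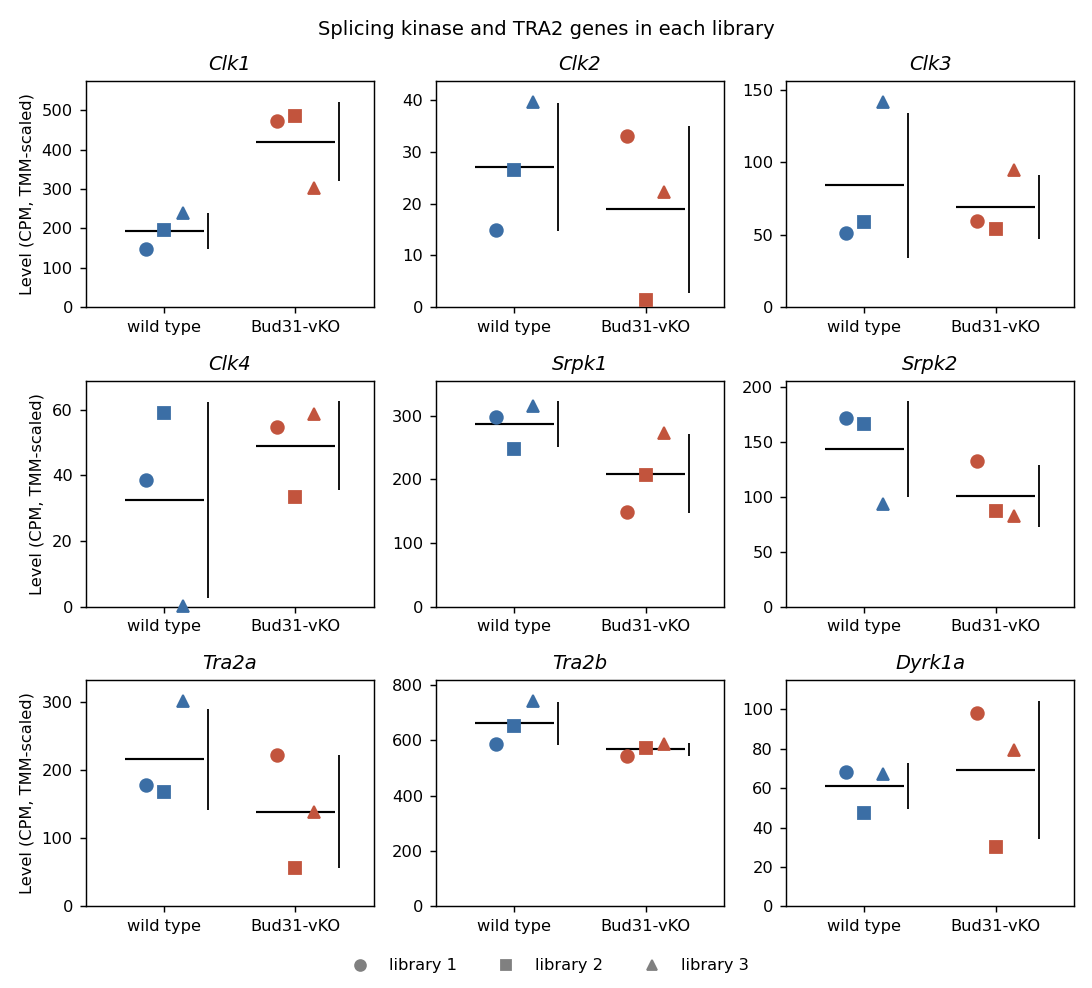
Level of each of the 9 genes in CPM (y axis, from 0, TMM-scaled) in 3 wild type and 3 Bud31-vKO libraries. Points are libraries, horizontal lines group means and vertical lines mean ± SD (n = 3); Clk1 alone separates the genotypes, Clk4 is near 0 in wild type library 3 (0.233 CPM) and Clk2 in Bud31-vKO library 2 (1.28 CPM).

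The other CLK genes showed no separation of the genotypes, and single libraries moved their fold changes. Clk2 lies at chr3:89164795-89176921 on the plus strand, Clk3 at chr9:57750624-57765860 on the minus strand and Clk4 at chr11:51261730-51281766 on the plus strand. Clk4, the closest relative of Clk1 by sequence, measured 38.5, 58.9 and 0.233 CPM in the wild type libraries, and the Bud31-vKO libraries gave 54.8, 33.5 and 58.9 CPM. The value in wild type library 3 rests on 4 reads, where the other 5 libraries held 470 to 1067. Clk4 had a log2 fold change of 0.59 (SE 1.33), of 0.03 without wild type library 3 and of 1.33 without wild type library 2. Clk2, a CLK kinase also known for its part in insulin signalling in liver, measured 14.95, 26.57 and 39.71 CPM in the wild type libraries, and the Bud31-vKO libraries gave 33.04, 1.284 and 22.33 CPM. Its lowest value came from 18 reads in Bud31-vKO library 2, against 205 to 682 reads elsewhere. The log2 fold change of -0.52 (SE 1.16) was 0.04 without that library and 0.43 in the 4 gene-rich libraries. Clk3, a CLK kinase known to be abundant in rodent testis, measured 51.2, 58.9 and 141.8 CPM in the wild type libraries, and the Bud31-vKO libraries gave 59.4, 54.0 and 94.6 CPM. The third library was the highest in each genotype. Its log2 fold change of -0.28 (SE 0.53) was 0.35 without wild type library 3 and 0.49 in the 4 gene-rich libraries. Exons of Clk3 share 15.2% of their bases with Edc3 on the opposite strand, and reads of such bases are counted for the right gene only if strand was used.

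Within the CLK family Clk1 held a larger share in each Bud31-vKO library than in the wild type libraries, a measure that does not depend on how libraries are scaled. Levels of different genes were compared per kilobase of merged exons. Clk1 made up 54.0%, 52.0% and 54.7% of the summed CLK level per kilobase in wild type libraries 1 to 3. In Bud31-vKO libraries 1 to 3 it made up 72.0%, 82.8% and 59.4%. All wild type shares lay within 3 percentage points of one another and below every Bud31-vKO share. In wild type library 3, however, Clk4 made up only 0.0749% of the CLK level, from 4 reads, against 19.7% and 22.0% in wild type libraries 1 and 2. So low a Clk4 level raises the Clk1 share of that library, and the narrow wild type range rests in part on it. Clk3 took 17.9%, 15.1% and 31.3% in wild type and 8.68%, 8.87% and 17.8% in Bud31-vKO, with overlap. Clk2 took 8.36%, 10.9% and 14.0% in wild type and 7.7%, 0.337% and 6.7% in Bud31-vKO, without overlap. The 0.337% in Bud31-vKO library 2 came from 18 reads. Shares of one sum are tied, so a higher Clk1 share lowers the others. The summed CLK level was 338 ± 83.8 CPM in wild type against 558 ± 71.9 CPM with Bud31-vKO (SD, n = 3 each), without overlap. Clk1 carried this difference, since the other 3 CLK genes summed to 144 ± 38.6 and 137 ± 44.3 CPM, with overlap. The sums of germ cell and of T and natural killer cell markers also separated the genotypes, and their part in the CLK sum was not tested. The ratio of Clk1 to Clk4 alone showed no such separation. On the log2 scale it was 1.46, 1.24 and 9.51 in wild type and 2.62, 3.36 and 1.88 in Bud31-vKO, the third wild type value resting on the 4 Clk4 reads. In the 4 gene-rich libraries the difference of these log2 ratios, Bud31-vKO over wild type, was 0.90, against -1.45 in all 6. By an exact permutation test, two-sided, which cannot go below p = 0.1 for 3 libraries against 3, p was 1 for this ratio and 0.6 for Clk2 to Clk3, and both were 1 when adjusted over the 4 ratios tested.

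**Figure D2:**
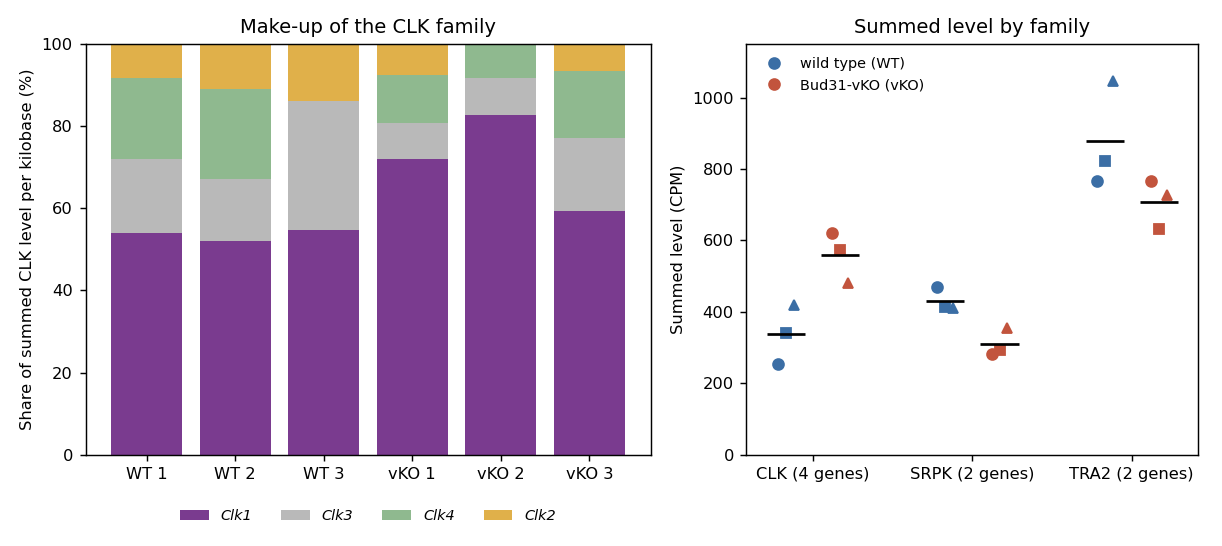
Left, share of the summed CLK level per kilobase of merged exons taken by each CLK gene (y axis, %) in each library; right, summed level of the CLK, SRPK and TRA2 genes (y axis, CPM), with circles, squares and triangles for libraries 1, 2 and 3 and lines for group means (n = 3). Clk1 holds 52.0% to 54.7% in wild type and 59.4% to 82.8% in Bud31-vKO. In Bud31-vKO the summed CLK level is higher, through Clk1, and the summed SRPK and TRA2 levels lower, without overlap, for TRA2 by a narrow margin. Germ cell marker sums separate the same libraries (3860 to 4560 against 2130 to 2820 CPM).

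Both SRPK genes had lower means in Bud31-vKO, and the genotypes overlapped for each. Srpk1 lies at chr17:28587648-28622709 and Srpk2 at chr5:23503264-23684617, both on the minus strand. Srpk1, the ubiquitous SR protein kinase, measured 298.6, 247.4 and 316.1 CPM in the wild type libraries, and the Bud31-vKO libraries gave 148.3, 206.7 and 273.0 CPM. Only Bud31-vKO library 3 reached into the wild type range. The log2 fold change was -0.46 (SE 0.32; edgeR unadjusted p = 0.193), and -0.24 without Bud31-vKO library 1. Srpk2, its relative known mostly from brain, measured 171.1, 165.7 and 93.5 CPM in the wild type libraries, and the Bud31-vKO libraries gave 132.7, 86.6 and 82.4 CPM. Here wild type library 3 lay among the Bud31-vKO values. Its log2 fold change was -0.51 (SE 0.39; edgeR unadjusted p = 0.232). The sum of both genes was 469.6, 413.1 and 409.6 CPM in wild type against 281.0, 293.4 and 355.4 CPM with Bud31-vKO, without overlap. The sums of germ cell and of T and natural killer cell markers also separated the genotypes, and their part in the SRPK sum was not tested. The TRA2 sum given below was also lower without overlap. Direction was the same for each SRPK gene in all 16 alternative settings, with a log2 fold change between -0.70 and -0.24 for Srpk1 and between -0.74 and -0.37 for Srpk2. The log2 ratio of Srpk1 to Srpk2 per kilobase averaged 1.21 ± 0.63 in wild type and 1.22 ± 0.80 in Bud31-vKO (SD, n = 3 each; exact permutation p = 1). Exons of Srpk2 share 7.0% of their bases with Kmt2e on the opposite strand.

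Tra2b was the steadiest of the 9 genes over the 6 libraries, and Tra2a varied far more. Tra2b lies at chr16:22244549-22266005 and Tra2a at chr6:49243924-49264033, both on the minus strand. Tra2b measured 588.8, 652.6 and 743.6 CPM in the wild type libraries, and the Bud31-vKO libraries gave 543.0, 574.6 and 589.1 CPM, so that its highest level was 1.37 times its lowest. The groups overlapped only through wild type library 1 and Bud31-vKO library 3, which differed by under 1 CPM. For Tra2b the log2 fold change was -0.22 (SE 0.25; edgeR unadjusted p = 0.403), and -0.10 without wild type library 3. Tra2a measured 177.7, 168.7 and 302.1 CPM in the wild type libraries, and the Bud31-vKO libraries gave 222.1, 55.9 and 138.7 CPM, a 5.41-fold span with the lowest value in Bud31-vKO library 2. Its log2 fold change was -0.64 (SE 0.52; edgeR unadjusted p = 0.256), -0.25 without that library and 0.07 in the 4 gene-rich libraries. The log2 ratio of Tra2a to Tra2b per kilobase was -1.32, -1.54 and -0.89 in wild type and -0.88, -2.95 and -1.68 in Bud31-vKO (exact permutation p = 0.5, 1 when adjusted over the 4 ratios). Tra2b thus exceeded Tra2a per kilobase in each of the 6 libraries. The sum of both genes was 766.4, 821.3 and 1046 CPM in wild type against 765.2, 630.5 and 727.8 CPM with Bud31-vKO. These sums did not overlap, with 766.4 and 765.2 CPM nearly meeting, and the part of the cell type markers in them was not tested. Dyrk1a, the relative of the CLKs, lies at chr16:94570010-94695517 on the plus strand. It measured 68.0, 47.4 and 67.4 CPM in the wild type libraries, and the Bud31-vKO libraries gave 98.1, 30.0 and 79.3 CPM. For Dyrk1a Bud31-vKO library 2 was the lowest of all 6, and the other Bud31-vKO libraries were the highest. Its log2 fold change of 0.18 (SE 0.54) was 0.63 in the 4 gene-rich libraries and -0.14 without Bud31-vKO library 1.

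**Figure D3:**
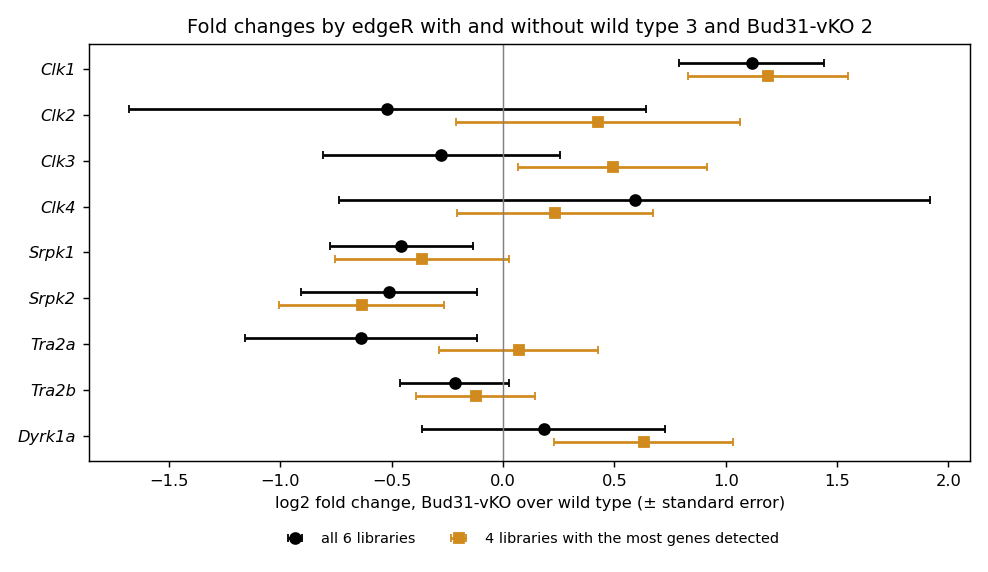
Log2 fold change of Bud31-vKO over wild type by edgeR (x axis, ± standard error) for the 9 genes, with all 6 libraries (black circles) and without wild type library 3 and Bud31-vKO library 2 (orange squares). Clk1 is at 1.12 and 1.19, both SRPK genes stay below 0, and Clk2, Clk3 and Tra2a change sign.

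Ordered by level per kilobase in wild type, Tra2b came first at 71.6 ± 8.43 CPM per kilobase and Tra2a second at 31.1 ± 10.7, without overlap (SD, n = 3). Clk1 followed at 23.9 ± 5.56 and Srpk1 at 23.2 ± 2.88, and neighbours from Tra2a to Srpk1 overlapped. Below a gap came Srpk2 at 10.3 ± 3.11, Clk3 at 9.94 ± 5.94, Dyrk1a at 7.38 ± 1.42, Clk4 at 5.62 ± 5.14 and Clk2 at 5.11 ± 2.34, each overlapping the next. In Bud31-vKO Clk1 stood second at 51.7 ± 12.5, overlapping Tra2b at 61.6 ± 2.55 and above Tra2a without overlap (SD, n = 3 each). Merged exons include retained introns that few transcripts carry, which lowers such levels. With the length of the longest transcript instead, Clk1 had rank 4 in wild type and rank 2 in Bud31-vKO, and the levels of Tra2b and Clk1 in Bud31-vKO, 138 ± 5.73 and 86.5 ± 20.8 CPM per kilobase, did not overlap.

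Taken over all 9 genes, 3 had a log2 fold change above 0 and 6 below, with a median of -0.28, where 51.1% of all tested genes were above 0 and the median was 0.02. By edgeR, 0 of 9 passed at an adjusted p under 0.05 in either direction, as did 0% of all genes. At an unadjusted p under 0.05 there was 1, Clk1, where 1.08% of all genes stood higher and 1.82% lower at that limit. DESeq2 and limma-voom also called 0 of 9, and DESeq2 gave Clk1 an adjusted p of 0.293, while calling 0.114% of genes higher and 0.2% lower. Genotypes did not overlap for 1 of 9 members, against 11.2% of all genes, and 1 of 9 had a log2 fold change of at least 1 in size, against 32.3%. In the 4 gene-rich libraries 6 of 9 were above 0, with a median of 0.23. The 9 genes together amounted to 1710 ± 207 CPM in wild type against 1640 ± 119 CPM with Bud31-vKO, with overlap. Without Clk1 the sum was 1510 ± 166 against 1220 ± 159 CPM, without overlap (SD, n = 3 each). Clk1 was left out for being higher in Bud31-vKO in these same libraries, which by itself lowers the remaining Bud31-vKO sum relative to wild type. This second sum is therefore a description only, and the part of the cell type markers in it was not tested.

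No other member was among the genes nearest to Clk1 in pattern. Likeness was taken as the root mean square difference of log2 CPM over the 6 libraries after each gene was centred on its own mean. The nearest member to Clk1 was Tra2b at 0.713, which ranked 1729 among 12756 protein-coding genes compared, nearer than most of them. Tra2b varied least of the members, and a small spread can by itself lower this difference. The 5 nearest genes were Slc6a6, the taurine transporter, at 0.080, Traf6, a ubiquitin ligase of immune receptor signalling, at 0.134, Tapbp, which loads peptides on class I histocompatibility molecules, at 0.177, Usp6nl, a regulator of RAB GTPases, at 0.185, and Fkbp8, a mitochondrial chaperone, at 0.187. Slc6a6 measured 51.4, 64.1 and 77.3 CPM in the wild type libraries, and the Bud31-vKO libraries gave 143.4, 148.6 and 106.3 CPM, with a log2 fold change of 1.05 (SE 0.36). Its adjusted p by edgeR was 0.9997. Genes near Clk1 in this sense were selected for their levels, so their fold changes are a description. The closest pair among the members was Srpk1 and Tra2b, at 0.288.

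Genes that work with these kinases and activators were read from lists drawn up by function. By edgeR 0 genes passed over all genes in any of the 7 lists. Of 11 SR proteins, the substrates of SRPK and CLK kinases, 5 were above 0 and 6 below, with a median log2 fold change of -0.10. In the 4 gene-rich libraries 2 were above 0 and 9 below, with a median of -0.20. In all 6 libraries 2 of the 11, Srsf6 and Srsf2, were lower without overlap and 0 higher, against 6.39% and 4.76% of all genes. Srsf6, an SR protein of exon inclusion, measured 719.6, 693.6 and 773.4 CPM in the wild type libraries, and the Bud31-vKO libraries gave 352.8, 340.9 and 499.0 CPM, without overlap. For Srsf6 the log2 fold change was -0.88 (SE 0.27; edgeR unadjusted p = 0.0129). Srsf11 went the other way at 334 ± 98.3 against 448 ± 64.0 CPM (SD, n = 3 each), with overlap. Of 20 SR-related proteins, 10 were above 0 and 10 below (median 0.02), where the 4 gene-rich libraries gave 14 and 6 (median 0.33). In all 6 libraries 3 were higher and 1 lower without overlap, against 4.76% and 6.39% of all genes. Rbm25, a partner of the U1 particle, measured 457.2, 420.1 and 550.5 CPM in the wild type libraries, and the Bud31-vKO libraries gave 828.3, 705.4 and 660.9 CPM. Its relative in function Rbm39, a U2AF-like splicing factor, measured 949 ± 49.6 against 1356 ± 169 CPM (SD, n = 3 each). The log2 fold changes were 0.62 and 0.52 with standard errors of 0.26 and 0.24, and in the 4 gene-rich libraries 0.78 and 0.59. In the Bud31-vKO libraries the summed germ cell markers were lower and the summed T and natural killer cell markers higher. Their part in the levels of Srsf6, Rbm25 and Rbm39 was not tested.

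**Figure D4:**
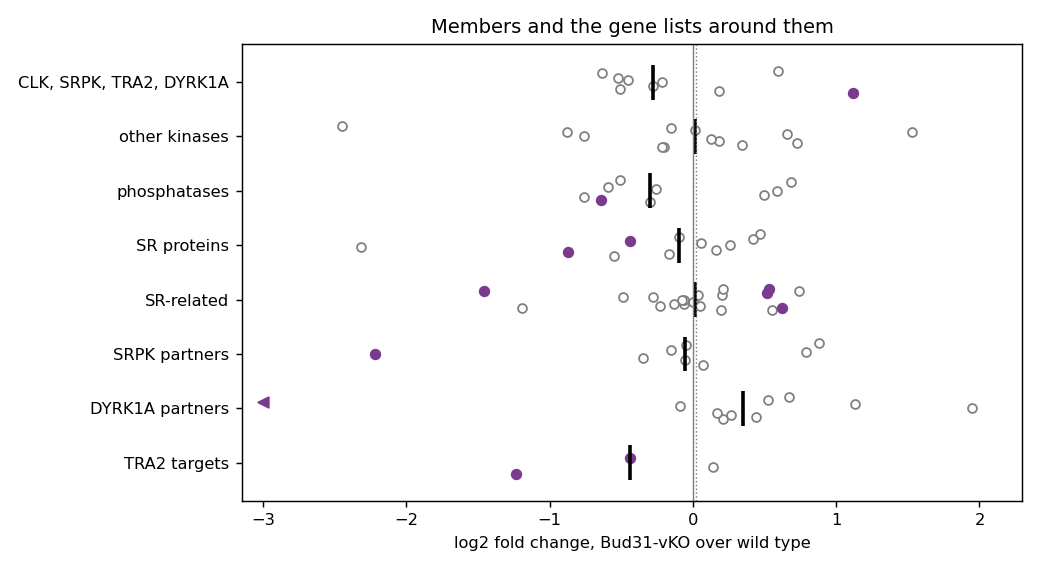
Log2 fold change of Bud31-vKO over wild type (x axis) for the 9 genes and for 7 lists of related genes (rows). Each point is a gene, filled where the genotypes do not overlap, bars are list medians, and the triangle at the left edge is Nfatc4 at -5.12, beyond the axis. Medians lie between -0.44 and 0.35, beside 0.02 over all tested genes (dotted line).

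Among TRA2 target genes Nasp differed most. It measured 609.5, 740.4 and 830.8 CPM in the wild type libraries, and the Bud31-vKO libraries gave 282.2, 226.8 and 417.8 CPM, with every Bud31-vKO library below every wild type library, as held for 6.39% of all genes. The log2 fold change was -1.24 (SE 0.32), and edgeR gave an unadjusted p of 0.0051, the 31st smallest, and an adjusted p of 0.9997. In the 4 gene-rich libraries it was -0.94 (SE 0.32), and without each library in turn between -1.52 and -1.05. The counts do not separate the long Nasp transcript with the AGAA-rich exon from the short ones. The summed germ cell markers were lower with Nasp, and their part in its level was not tested. Chek1, a checkpoint kinase whose splicing depends on TRA2 proteins in human cells, measured 62.3 ± 9.52 against 46.0 ± 7.96 CPM without overlap (log2 fold change -0.44, SE 0.47, and -0.17 in the 4 gene-rich libraries), and Smn1 had a log2 fold change of 0.14.

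Each of the remaining lists held 0 or 1 genes whose genotypes did not overlap with Bud31-vKO lower, against 6.39% of all genes, and 0 with Bud31-vKO higher, against 4.76%. Of 13 tested kinases related to the members, out of 14, 7 were above 0 and 6 below, with a median of 0.01. Dyrk2, of the DYRK family, had a log2 fold change of 1.53, and of 0.73 without Bud31-vKO library 2, where it measured 83.4 CPM. For Cdk13, a kinase of RNA polymerase II, it was -0.88, and -0.18 without wild type library 3. Of 9 phosphatase genes, which remove such phosphates, 3 were above 0 and 6 below (median -0.30). Ppm1g, a phosphatase of splicing factors, measured 222 ± 18.3 against 142 ± 66.2 CPM without overlap (SD, n = 3 each), and its log2 fold change of -0.64 was -0.28 without Bud31-vKO library 1. Ppp1cc measured 84.0 ± 16.0 against 119 ± 30.3 CPM with overlap (SD, n = 3 each). Of 8 SRPK partners, 3 were above 0 and 5 below (median -0.05). Safb, which encodes a nuclear matrix protein that binds SRPK1, had a log2 fold change of 0.88, and of 0.58 without Bud31-vKO library 2. Of 10 partners and substrates of DYRK1A, 8 were above 0 and 2 below (median 0.35). Nfatc2, a transcription factor of the kind DYRK1A phosphorylates, had a log2 fold change of 1.95 (SE 1.46), and 1.73 (SE 0.48) in the 4 gene-rich libraries. It held 1 read in wild type library 3, and its log2 fold change was 1.38 without that library and ranged from 1.38 to 4.1 over the settings. The part of the T and natural killer cell markers in its level was not tested. Lin9, a subunit of the DREAM complex that DYRK1A helps assemble, had a log2 fold change of 1.13 in all 6 libraries and 0.02 in the 4 gene-rich ones, and was measured at 166 CPM in Bud31-vKO library 2 against 21.9 to 48.1 CPM elsewhere.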

How the data were processed

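Smart-Seq2 libraries of sorted spermatogonial stem cells were sequenced, and the authors deposited raw read counts for each Ensembl gene, whole numbers whose totals differ between libraries. The submitters' processing notes name bcl2fastq and the build mm10. For the aligner, counter, annotation release and strand the entry is: not given in the sources used here. Symbols, exons and transcript sequences came from GENCODE M21 (GRCm38, the assembly called mm10), which matched 51633 identifiers (99.5%). In edgeR 4.0.16, filterByExpr chose the genes to test (at least 10 reads in enough libraries and 15 in total), TMM scaled the libraries, and each gene was tested with the quasi-likelihood F test, without covariates, at an adjusted p of 0.05 over all genes. The floor of 3 reads equals 0.166 to 0.222 CPM and covers counting error only. Alternatives used DESeq2 1.42.0, limma 3.58.1 and other settings listed in the closing section. The steps were tested on simulated data. R 4.3.3, Python 3.11.15 and matplotlib 3.10.9 were used.

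The members and lists were chosen with earlier results of these data known. Named beside the members were, by rule, the 2 genes of each list with the smallest unadjusted p at a mean log2 CPM of at least 3, the 5 genes most like the member with the smallest p, and Bud31, Thy1 and Kit. 1 gene chosen by this rule is not reported here. Smn1, Srsf2 and Nfatc4 were named after their values were seen.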

Additional observations from a re-analysis of the deposited data

How the results depend on the processing

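Over 17 settings of each log2 fold change, Clk1 stayed between 0.95 and 1.32, Srpk1 between -0.70 and -0.24, Srpk2 between -0.74 and -0.37, Tra2b between -0.30 and -0.10 and Clk4 between 0.03 and 2.60, the last with limma-voom. Signs turned in the 4 gene-rich libraries for Clk2 (0.43), Clk3 (0.49) and Tra2a (0.07), where the median of the 9 genes was 0.23, and without one library for Clk2 (-1.19 to 0.04 over the libraries left out), Clk3 (-0.57 to 0.35) and Dyrk1a (-0.14 to 0.55). The cause was not tested. No member passed over all genes in any setting. For all genes the calls were 0 higher and 0 lower in each setting except no filter on low counts (5 higher, 2 lower) and DESeq2 (17 higher, 30 lower). At an unadjusted p under 0.05 the main edgeR fit had 165 genes higher and 278 lower. That count differed between settings, with 495 and 629 in the 4 gene-rich libraries and 120 and 208 without wild type library 2. Scaling was by RLE, by upper quartile or by total reads. Other settings were 2 filters on low counts, 2 other tools, a replicate block, leaving out genes of mitochondria, haemoglobin and ribosomal RNA, the 4 gene-rich libraries, and each library left out. With the replicate block, which took the library number as a term, 0 genes were called as without it, and Clk1 had 1.12. The labels do not say what same-numbered libraries share. The correlations of their deviations from the group means were 0.19, 0.04 and -0.08, and not every library correlated best with its own number. With so few libraries these values cannot tell whether the numbers mark a pairing. Differences of the paralogue ratios took both signs over the settings, for Clk1 to Clk4 between -2.86 and 1.28 and for Clk2 to Clk3 between -2.15 and 0.12. Ranges were -0.34 to 0.45 for Srpk1 to Srpk2 and -1.06 to 0.15 for Tra2a to Tra2b. These moves were smaller than the spread between libraries, a loose limit for Clk1 to Clk4, whose SD was 4.72 in wild type. The biological coefficient of variation over all genes was 119%, and the effect of read depth was not tested.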
